A study of Homo sapiens with 12 samples.

Results

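The genes described here make cholesterol and fatty acids. They are 30 of the 58735 genes counted in Ovcar8, a cell line derived from an ovarian carcinoma, and they were chosen by name from a list that covers the sterol pathway, its regulators and the main steps of fatty acid synthesis. By role, 18 code for sterol synthesis (HMGCS1, MVK, PMVK, MVD, IDI1, FDPS, FDFT1, SQLE, LSS, CYP51A1, TM7SF2, MSMO1, NSDHL, HSD17B7, EBP, SC5D, DHCR7 and ACAT2), 5 for sterol regulation (INSIG1, SREBF1, SREBF2, SCAP and STARD4) and 7 for fatty acid and glycerolipid synthesis (FASN, ACACA, SCD, ELOVL6, FADS1, FADS2 and LPIN1). The list does not hold every gene of these pathways.

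RNA was sequenced from 4 groups of 3 libraries. The control group was Ovcar8 without CCNE1 overexpression. The CCNE1 group overexpressed CCNE1, the gene of cyclin E1. In the last 2 groups, here shTMLHE 1 and shTMLHE 2, CCNE1 overexpression was combined with 1 of 2 short hairpin RNAs against TMLHE. The product of TMLHE catalyses the first step of carnitine synthesis. Every group, control included, was transduced with lentivirus, selected in 3 µg/ml puromycin and grown in RPMI-1640 with 5% serum. The labels name neither separate cultures or clones for the replicates nor a hairpin against another target, so p-values measure the spread between these libraries, and TMLHE loss cannot be told apart from an effect common to hairpins.

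Cells make cholesterol from acetyl-CoA. Condensation to HMG-CoA leads to mevalonate, to isoprenoid units, to squalene and then, through a series of ring modifications in the endoplasmic reticulum, to cholesterol. Supply is held in a feedback loop: the precursors of the transcription factors SREBP-1 (SREBF1) and SREBP-2 (SREBF2) are bound by SCAP, which carries them to the Golgi for cleavage when sterols are low, while INSIG1 keeps the complex in the endoplasmic reticulum when sterols are high. SREBP-2 mainly drives sterol genes and SREBP-1 mainly drives fatty acid genes, and NF-Y and Sp1 are their common partners at promoters. Fatty acids are built from malonyl-CoA by ACACA and FASN, then elongated and desaturated.

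Promoter sequences were compared because sterol genes are known for a shared promoter architecture. RefSeq (GRCh38.p14) gave promoters of 300 bases around the start for 26 of the 30 genes, and a gene with several starts counted once if any promoter held the motif. On either strand, the NF-Y box CCAAT was present for 13 of 15 sterol synthesis genes, 3 of 5 regulators and 3 of 6 fatty acid genes, against 39.72% of all 27305 genes in that table, noncoding genes included. The Sp1 GC box GGGCGG was present for 25 of 26 members against 48.3% of all genes, the E-box CACGTG for 4 of 26 against 8.77%, and the sterol regulatory element TCACNCCAC for 1 of 26, SREBF2, against 1.39%. The motifs were searched without mismatches, and a match is not a measured binding site.

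The windows below are the stretches before the start that hold these matches in members on which the results turn, 5′ to 3′ on the gene's own strand, with the NF-Y boxes (CCAAT, or ATTGG on the other strand) and the sterol regulatory element in capitals. They lie at chr22:41832957-41833018 on the plus strand for SREBF2, chr7:155297693-155297727 on the plus strand for INSIG1, chr5:111512646-111512711 on the minus strand for STARD4, chr5:43313493-43313582 on the minus strand for HMGCS1, chr10:1049217-1049349 on the minus strand for IDI1, chr16:88663157-88663265 on the minus strand for MVD and chr10:100346989-100347066 on the plus strand for SCD.
SREBF2: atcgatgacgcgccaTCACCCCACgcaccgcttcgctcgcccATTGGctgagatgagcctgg
INSIG1: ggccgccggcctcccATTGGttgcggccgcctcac
STARD4: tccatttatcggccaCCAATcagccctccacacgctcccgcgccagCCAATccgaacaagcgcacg
HMGCS1: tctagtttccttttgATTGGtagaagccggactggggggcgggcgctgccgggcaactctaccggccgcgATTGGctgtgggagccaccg
IDI1: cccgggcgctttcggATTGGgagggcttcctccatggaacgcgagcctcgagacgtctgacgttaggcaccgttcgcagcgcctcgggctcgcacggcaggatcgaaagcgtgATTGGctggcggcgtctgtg
MVD: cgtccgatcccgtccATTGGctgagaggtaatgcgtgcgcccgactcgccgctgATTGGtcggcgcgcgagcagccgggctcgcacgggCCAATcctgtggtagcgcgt
SCD: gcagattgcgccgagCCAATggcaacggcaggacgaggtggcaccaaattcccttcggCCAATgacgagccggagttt
SREBF2 holds the sterol regulatory element as TCACCCCAC, followed by 1 NF-Y box, while HMGCS1, IDI1, STARD4 and SCD hold 2 NF-Y boxes each and MVD holds 3. Of the genes shown, HMGCS1, IDI1, STARD4 and INSIG1 were called higher with both hairpins, and MVD and SCD were called lower with both. SREBF2 was called lower with shTMLHE 2 alone. The shTMLHE 2 values of MVD, SCD and SREBF2 depended on the processing. Whether the boxes relate to these directions was not tested.

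Libraries held 14054101 to 21457503 counts. CCNE1 stood at 33.1 ± 1.28 CPM (counts scaled to library size) in control and 1001 ± 34.0 with CCNE1 (SD, n = 3). With shTMLHE 1 it stood at 1269 ± 49.0 and with shTMLHE 2 at 847 ± 21.2, so CCNE1 RNA differed between the overexpressing groups. Whether changes with the hairpins relate to these CCNE1 levels was not tested. TMLHE stood at 15.7 ± 2.69 with CCNE1, 0.956 ± 0.286 with shTMLHE 1 and 0.482 ± 0.241 with shTMLHE 2 (SD, n = 3). Of 10 epithelial and serous ovarian markers, 7 passed the filter on low counts, among them PAX8 (68.6 to 153 CPM over all libraries) and KRT8 (2387 to 4028 CPM), whereas MUC16 was at 0 in every library and WT1 at no more than 0.952 CPM. EPCAM was low at 1.59 to 4.13 CPM and CDH1 at 0.448 to 4.07 CPM, and KRT19 was at no more than 0.825 CPM. Summed markers of leukocytes reached at most 2.90 CPM, of endothelium 3.30 and of adipocytes 3.01, with ADIPOQ and LEP at 0, and those of hepatocytes reached 10.5 with ALB and TTR at 0. Of 5 fibroblast markers 2 passed, COL1A1 and PDGFRB, and the sum of the list was 900 to 967 CPM in control, 611 to 640 with CCNE1, 1535 to 1628 with shTMLHE 1 and 1257 to 1296 with shTMLHE 2, with DCN at 0 and COL1A2 at no more than 0.188 CPM. Both hairpin groups differed from the others in library make-up: ribosomal protein genes took 12.5 to 14.5% of counts in control and CCNE1 libraries and 7.43 to 7.90% in hairpin libraries, and the mean GC content of counted genes was 53.5 to 53.9% against 52.3 to 52.5% with shTMLHE 1 and 50.6 to 50.8% with shTMLHE 2. The hairpin groups also differed from each other in mitochondrial transcripts, at 5.23 to 5.53% of counts with shTMLHE 1 and 2.87 to 2.99% with shTMLHE 2. These transcripts took 4.06 to 4.32% in control and 3.13 to 3.20% with CCNE1. CPM here are scaled by TMM, which sets the bulk of genes to no change. Scaling to total counts instead would raise the median log2 fold change of all genes by 0.39 for shTMLHE 1 and by 0.53 for shTMLHE 2, and a direction that this turns is marked where it is given.

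Of the 30 genes, 29 passed the filter. SC5D, the lathosterol desaturase near the end of the pathway, had 0 counts in all 12 libraries, which allows up to 0.123 to 0.248 CPM per library at a floor of 3 counts (counting error only). The gene is widely expressed in other cells and the counting method is unknown, so absent transcript and reads lost in counting cannot be told apart here. The 30 genes together took 0.585 to 0.650% of counts in control and CCNE1 libraries and 0.538 to 0.644% in hairpin libraries. Per kilobase of exon, SCD at 223 ± 3.23 and FASN at 194 ± 6.03 RPKM (CPM per kilobase of exon) were the most abundant in control, followed by DHCR7 at 106 ± 2.92 and FDFT1 at 92.8 ± 0.925, and these neighbours lay further apart than their SDs (SD, n = 3). At the other end stood HSD17B7 at 1.79 ± 0.203, STARD4 at 1.24 ± 0.0605 and CYP51A1 at 1.18 ± 0.401, of which STARD4 and CYP51A1 did not differ beyond their spread. Reads of CYP51A1, the lanosterol demethylase, are uncertain because 83.2% of its exon bases overlap other genes, mainly the readthrough gene AC000120.2, which was at 0 counts in every library. ACAT2 shares 52.3% of its exon bases with other genes, largely on the opposite strand, and HSD17B7 has the pseudogene copy HSD17B7P2 (10 to 82 counts per library), so that their reads may be split or mixed. Genes on the opposite strand overlap 14.8 to 18.6% of the exon bases of HMGCS1, IDI1 and FDPS, and with the strand setting unknown their counts may hold antisense reads.

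**Figure D1:**
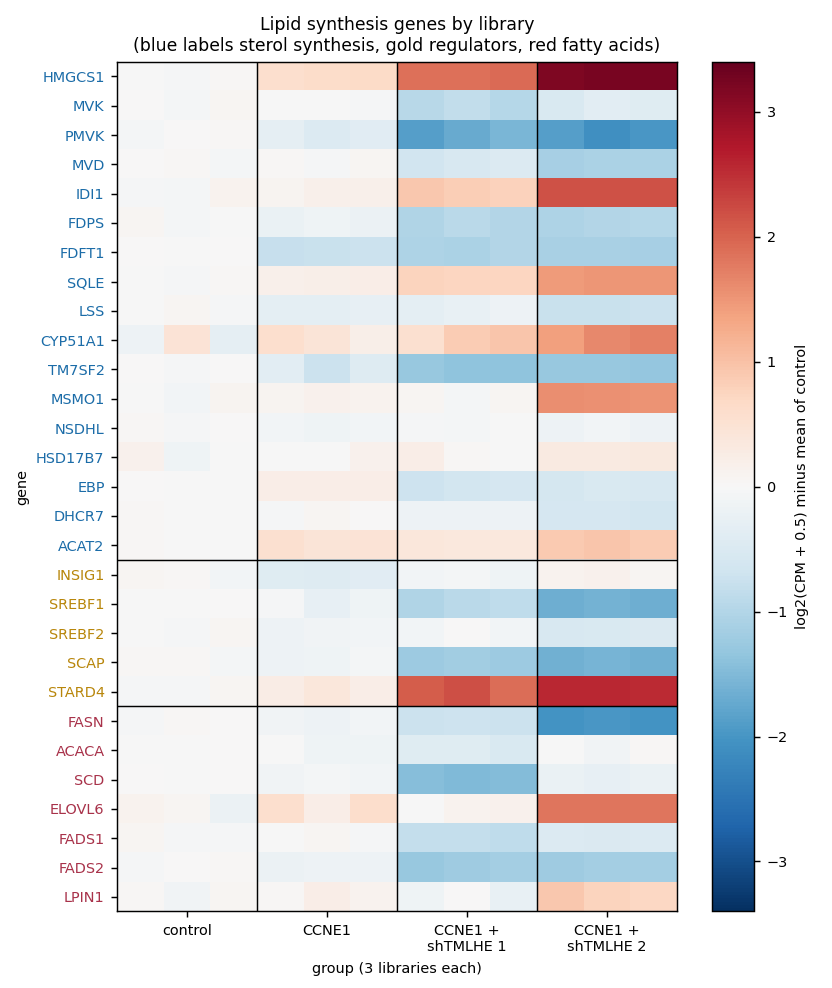
Heat map of log2(CPM + 0.5) minus the control mean for 29 genes (rows, by role) in the 12 libraries (columns, 3 per group). Libraries of a group resemble each other, and HMGCS1 and STARD4 are the reddest rows and FASN, PMVK and SREBF1 among the bluest in the shTMLHE 2 columns.

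The CCNE1 comparison asked what distinguishes cells that overexpress CCNE1 from the control. Changes in these genes were small and ran both ways: 6 of 29 genes rose and 12 fell, or 62.1%, against 44.2% of all 15378 tested genes (25.1% higher, 19.1% lower; edgeR quasi-likelihood test, adjusted p under 0.05). The median log2 fold change of the 29 genes was -0.019, against 0.047 over all tested genes, and the extremes were -0.76 and 0.63. In bulk RNA, fewer cells with a transcript and less transcript per cell cannot be told apart.

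Among sterol synthesis genes 5 rose, 5 fell and 7 did not pass, or 58.8% called, against 44.2% of all tested genes. FDFT1 (ENSG00000079459), squalene synthase, fell most. It stood at 484, 478 and 487 CPM in control and 281, 286 and 290 CPM with CCNE1, and the groups did not overlap. The change was -0.76 ± 0.03 on the log2 scale (SE, edgeR adjusted p = 5.26e-20). HMGCS1 (ENSG00000112972, chromosome 5, 43289395 to 43313512), which makes HMG-CoA, rose most, from 16.2, 16.1 and 17.0 CPM to 24.6, 25.6 and 26.3 CPM. Its groups did not overlap either, and the change was 0.63 ± 0.08 (adjusted p = 9.05e-09), or 0.31 once the trend of expression with GC content and length was removed. TM7SF2, a sterol C14 reductase, went from 59.0, 56.8 and 58.9 CPM to 45.1, 35.0 and 43.2 CPM, every CCNE1 library below every control library, a fall by 0.51 ± 0.08 (adjusted p = 2.77e-06).

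The other sterol enzymes changed less. ACAT2, the thiolase that feeds the pathway with acetoacetyl-CoA, rose by 0.48 ± 0.04, EBP, the sterol isomerase, by 0.22 ± 0.04, and SQLE, which oxidises squalene, by 0.20 ± 0.04. PMVK, a mevalonate pathway kinase, at -0.39 ± 0.07, the cyclase LSS at -0.32 ± 0.04 and the farnesyl diphosphate synthase FDPS at -0.19 ± 0.04 fell. IDI1, the isopentenyl diphosphate isomerase, was called higher at 0.15 ± 0.05 (edgeR adjusted p = 0.0237). This call was lost without control replicate 1 (0.12) or 2 (0.11) or CCNE1 replicate 2 (0.13) or 3 (0.14). It was also lost under total counts (0.13) and with the compared groups alone (0.12). Removing the trend with GC content and length turned SQLE to -0.100 and IDI1 to -0.18 and ended the call of FDPS (-0.023), and it left PMVK at -0.20, LSS at -0.17 and EBP at 0.41. Among genes that did not pass, MVK was at -0.019, MVD at 0.021, DHCR7 at 0.015 and HSD17B7 at 0.034. NSDHL was at -0.11, MSMO1 at 0.11 (0.16 and called without control replicate 3) and CYP51A1 at 0.41 (0.72 and called without control replicate 2).

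Of the 5 regulators 4 fell with CCNE1 and none rose, against 19.1% lower and 25.1% higher among all tested genes. With the trend of expression with GC content and length removed 1 regulator was called lower. INSIG1 (ENSG00000186480, chromosome 7, 155297776 to 155310235), itself a sterol-responsive gene, stood at 115, 113 and 104 CPM in control and 83.5, 81.8 and 84.6 CPM with CCNE1. The libraries did not overlap, and the fall by 0.41 ± 0.05 (edgeR adjusted p = 1.45e-08) exceeded those of the other regulators, which were small. SREBF1 went from 188, 188 and 189 CPM to 183, 154 and 169 CPM, a change of -0.16 ± 0.05 (adjusted p = 0.0106) that was -0.096 and not called without CCNE1 replicate 2. SREBF2 went from 426, 417 and 447 CPM to 384, 395 and 405 CPM, a change of -0.12 ± 0.04 (adjusted p = 0.00559) that was -0.094 and not called without control replicate 3. SCAP went from 257, 255 and 236 CPM to 221, 227 and 236 CPM, overlapping groups, with a change of -0.13 ± 0.04 (adjusted p = 0.0122) that was not called without control replicate 1 or 2 or CCNE1 replicate 1 (each -0.11). After removal of that trend the calls of SREBF1 (-0.088), SREBF2 (0.029) and SCAP (-0.0081) ended, while INSIG1 stood at -0.46. STARD4, a carrier of cholesterol between membranes, was at 0.31 ± 0.13 and did not pass (adjusted p = 0.0519), and was called at 0.31 without shTMLHE 1 replicate 3.

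Of the 7 fatty acid genes, 1 rose with CCNE1, 3 fell and 3 did not pass, or 57.1% called, against 44.2% of all tested genes. The elongase ELOVL6, which lengthens palmitate, stood at 20.8, 20.1 and 16.6 CPM in control and 28.8, 22.4 and 29.0 CPM with CCNE1, with no overlap, a rise by 0.47 ± 0.10 (edgeR adjusted p = 0.000185) that became 0.18 and was no longer called with the trend removed. FADS2, the delta-6 desaturase, went from 385, 396 and 404 CPM to 342, 348 and 351 CPM, lower in every library, by -0.19 ± 0.04 (adjusted p = 8.59e-05), and was at -0.047 with the trend removed. FASN, fatty acid synthase, went from 1748, 1850 and 1840 CPM to 1654, 1602 and 1703 CPM, a change of -0.13 ± 0.03 (adjusted p = 0.000361), and the stearoyl-CoA desaturase SCD changed by -0.096 ± 0.029. The 3 falls were of at most 1.14-fold. ACACA at -0.11 (called at -0.15 without CCNE1 replicate 1), FADS1 at 0.0049 and LPIN1 at 0.13 did not pass.

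The hairpin comparisons asked what differs between cells with CCNE1 and a TMLHE hairpin and cells with CCNE1 alone. Both use the same 3 CCNE1 libraries. With shTMLHE 1, 5 of 29 genes rose and 18 fell, or 79.3%, against 60.7% of all tested genes (30.4% higher, 30.3% lower), with a median of -0.28 against 0.034 over all genes. With shTMLHE 2, 10 rose and 16 fell, or 89.7%, against 73.0% of all tested genes (36.8% higher, 36.2% lower), with a median of -0.36 against 0.031. Under total counts 14 rose and 12 fell with shTMLHE 1 and 17 rose and 9 fell with shTMLHE 2, so the balance of rises and falls depends on the scaling.

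HMGCS1 and STARD4 had the largest rises and IDI1 came next with shTMLHE 2. HMGCS1 stood at 24.6, 25.6 and 26.3 CPM with CCNE1, at 61.9, 61.3 and 64.3 CPM with shTMLHE 1 and at 153, 159 and 158 CPM with shTMLHE 2. No groups overlapped. The log2 fold changes were 1.29 ± 0.06 (edgeR adjusted p = 2.27e-20) and 2.62 ± 0.06 (adjusted p = 2.53e-31), or 2.45-fold and 6.13-fold. IDI1 (ENSG00000067064, chromosome 10, 1039152 to 1049170) stood at 69.2, 73.9 and 72.9 CPM with CCNE1, 124, 117 and 112 CPM with shTMLHE 1 and 291, 296 and 293 CPM with shTMLHE 2, again without overlap. It rose by 0.71 ± 0.05 and by 2.02 ± 0.05 (adjusted p = 2.82e-15 and 1.57e-30).

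SQLE acts just before the closure of squalene to lanosterol and MSMO1 after it. SQLE, a flux-controlling step, stood at 144 ± 2.41 CPM with CCNE1, 210 ± 1.78 with shTMLHE 1 and 352 ± 8.28 with shTMLHE 2, and rose by 0.55 ± 0.04 and 1.29 ± 0.04. MSMO1, the C4 methyl sterol oxidase, stood at 71.9, 73.6 and 72.3 CPM with CCNE1, at 69.9, 64.6 and 70.0 with shTMLHE 1 and at 203, 197 and 194 with shTMLHE 2. It was thus high in the shTMLHE 2 libraries alone, by 1.45 ± 0.05 (edgeR adjusted p = 1.51e-25), against -0.092 ± 0.053 with shTMLHE 1, which did not pass and was 0.30 and called under total counts. CYP51A1 rose by 1.24 ± 0.18 with shTMLHE 2 at 13.3 ± 1.51 CPM, and was at 0.41 ± 0.19 with shTMLHE 1, not passing (adjusted p = 0.0664). The latter was called without control replicate 2 (0.41), CCNE1 replicate 1 (0.50) or shTMLHE 1 replicate 1 (0.53) and under total counts (0.80).

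Other sterol enzymes fell. PMVK stood at 61.3, 55.5 and 58.0 CPM with CCNE1, 20.4, 22.8 and 25.7 CPM with shTMLHE 1 and 20.4, 17.8 and 19.1 CPM with shTMLHE 2. Hairpin libraries all lay below the CCNE1 libraries, and the changes were -1.34 ± 0.08 and -1.61 ± 0.08 (edgeR adjusted p = 1.58e-17 and 2.61e-20). MVK, mevalonate kinase, stood at 136, 137 and 134 CPM with CCNE1, 70.7, 76.0 and 70.4 CPM with shTMLHE 1 and 95.0, 107 and 102 CPM with shTMLHE 2. It was called lower at -0.90 ± 0.05 and -0.42 ± 0.05, the latter turning to 0.11 under total counts and to 0.23 with the trend removed.

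TM7SF2 was called lower at -0.85 ± 0.09 with shTMLHE 1 and -0.80 ± 0.08 with shTMLHE 2, with 22.8 ± 0.823 and 23.5 ± 0.186 CPM, and the latter turned to 0.26 with the trend removed. MVD, the mevalonate diphosphate decarboxylase, changed by -0.58 ± 0.04 with shTMLHE 1 and -1.12 ± 0.04 with shTMLHE 2, both called, and the latter was -0.068 and not called with the trend removed. FDPS, at -0.78 ± 0.04 and -0.81 ± 0.04, and EBP, at -0.85 ± 0.04 and -0.77 ± 0.04, fell with both hairpins. FDFT1 was called lower at -0.28 and -0.36, both turning under total counts (0.11 and 0.17). The last reductase of the pathway, DHCR7, was called lower at -0.19 and -0.60. Its shTMLHE 1 value turned under total counts (0.21) and was 0.011 with the trend removed, and its shTMLHE 2 value lost its call under total counts (-0.073) and with the trend removed (-0.00073). LSS did not pass with shTMLHE 1 at 0.063 and was called lower with shTMLHE 2 at -0.44, which turned under total counts (0.091) and was 0.070 with the trend removed. NSDHL at 0.075 and -0.032 and HSD17B7 at 0.049 and 0.29 did not pass, and HSD17B7 was called with shTMLHE 2 without CCNE1 replicate 3 (0.36). Under total counts NSDHL was called at 0.47 and 0.50 and HSD17B7 at 0.44 and 0.82.

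The 5 regulators split. STARD4 (ENSG00000164211, chromosome 5, 111496033 to 111512590) stood at 8.44, 9.30 and 8.36 CPM with CCNE1, 31.0, 33.8 and 27.8 CPM with shTMLHE 1 and 44.4, 44.1 and 43.0 CPM with shTMLHE 2. Its groups did not overlap, and it rose by 1.82 ± 0.11 and 2.33 ± 0.10 (edgeR adjusted p = 6.50e-18 and 5.76e-22). INSIG1 stood at 83.5, 81.8 and 84.6 CPM with CCNE1, 104, 105 and 101 CPM with shTMLHE 1 and 119, 122 and 116 CPM with shTMLHE 2, and rose by 0.31 ± 0.05 and 0.52 ± 0.05 (adjusted p = 1.17e-06 and 4.56e-12).

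SREBF1 (ENSG00000072310, chromosome 17, 17810399 to 17837002) stood at 183, 154 and 169 CPM with CCNE1, 91.6, 100 and 103 CPM with shTMLHE 1 and 59.3, 61.2 and 59.1 CPM with shTMLHE 2. Every hairpin library was below every CCNE1 library, and the changes were -0.78 ± 0.05 and -1.49 ± 0.05 (edgeR adjusted p = 4.31e-16 and 4.82e-25). SCAP (ENSG00000114650, chromosome 3, 47413694 to 47477126), the escort of both SREBP precursors, stood at 221, 227 and 236 CPM with CCNE1, 106, 109 and 105 CPM with shTMLHE 1 and 80.6, 82.8 and 80.5 CPM with shTMLHE 2. It changed by -1.10 ± 0.04 and -1.49 ± 0.04 (adjusted p = 2.94e-23 and 6.60e-28), without overlap. SREBF2, whose promoter holds the sterol regulatory element shown above, stood at 384, 395 and 405 CPM with CCNE1, 405, 431 and 403 CPM with shTMLHE 1 and 297, 300 and 304 CPM with shTMLHE 2. It did not pass with shTMLHE 1 (0.065 ± 0.036, adjusted p = 0.118) and was called at 0.46 under total counts. With shTMLHE 2 it was called lower at -0.40 ± 0.04 (adjusted p = 1.52e-12), which became 0.13 under total counts and -0.013 with the trend removed.

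**Figure D2:**
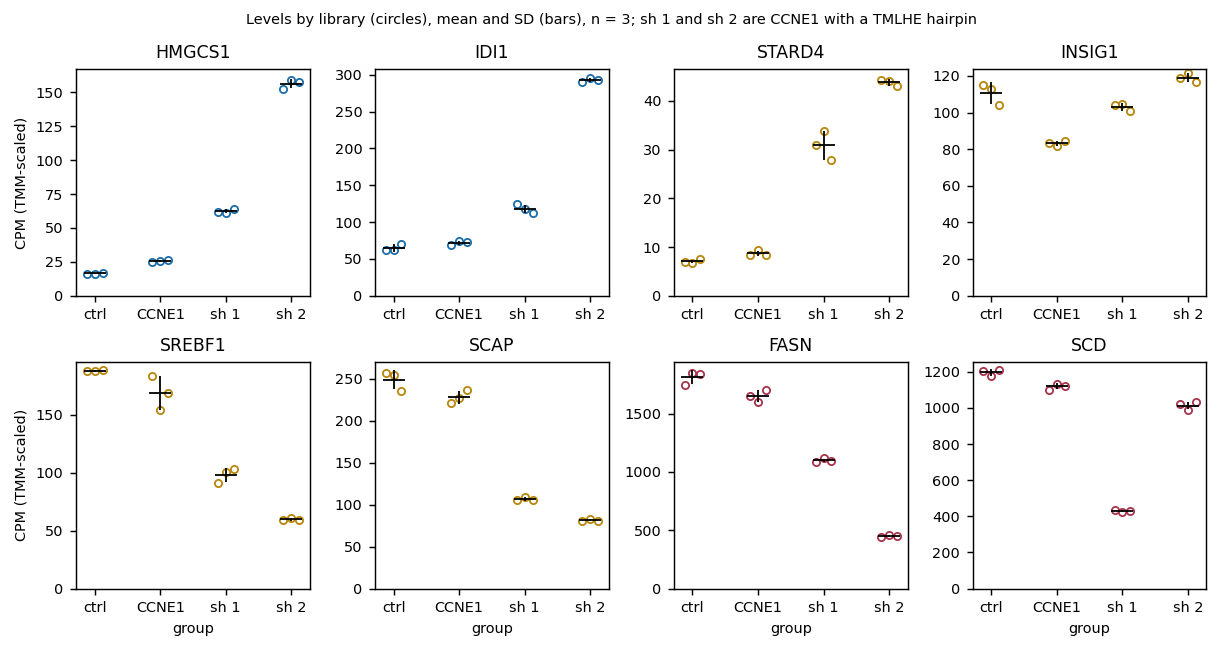
CPM (TMM-scaled, vertical axis from 0) of 8 genes in control, CCNE1, shTMLHE 1 and shTMLHE 2 libraries, with circles for libraries and black bars for mean and SD (n = 3). HMGCS1, IDI1 and STARD4 are highest with shTMLHE 2, SREBF1, SCAP and FASN lowest there, and SCD is lowest with shTMLHE 1 at 431 ± 4.69.

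With shTMLHE 1 all 7 fatty acid genes were called lower, against 30.3% of all tested genes. Under total counts ACACA, ELOVL6 and LPIN1 turned and 4 stayed called lower. With shTMLHE 2 the count was 4 lower and 2 higher, against 36.2% and 36.8% of all tested genes, and SCD and FADS1 turned under total counts. SCD (ENSG00000099194, chromosome 10, 100347124 to 100364834), which makes monounsaturated fatty acids, stood at 1101, 1134 and 1124 CPM with CCNE1, 435, 426 and 431 CPM with shTMLHE 1 and 1019, 989 and 1032 CPM with shTMLHE 2. It fell by 1.38 ± 0.03 with shTMLHE 1 (edgeR adjusted p = 1.61e-31) and was at -0.14 ± 0.03 with shTMLHE 2 (adjusted p = 3.36e-05), which turned to 0.39 under total counts. FASN (ENSG00000169710, chromosome 17, 82078333 to 82098332) stood at 1654, 1602 and 1703 CPM with CCNE1, 1085, 1114 and 1097 CPM with shTMLHE 1 and 441, 456 and 447 CPM with shTMLHE 2. The groups did not overlap, and the changes of FASN were -0.59 ± 0.03 and -1.88 ± 0.03 (adjusted p = 9.42e-20 and 1.04e-35).

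The neighbouring desaturase genes FADS1 and FADS2 on chromosome 11 make polyunsaturated fatty acids. FADS2 stood at 342, 348 and 351 CPM with CCNE1, 163, 170 and 178 CPM with shTMLHE 1 and 171, 177 and 177 CPM with shTMLHE 2, and changed by -1.03 ± 0.04 and -0.99 ± 0.04, both called. FADS1, the delta-5 desaturase, stood at 293, 312 and 292 CPM with CCNE1, 169, 169 and 162 CPM with shTMLHE 1 and 214, 210 and 215 CPM with shTMLHE 2. Its hairpin libraries were all lower, at -0.84 ± 0.04 and -0.49 ± 0.04, of which the latter was 0.040 and not called under total counts. ACACA, which makes malonyl-CoA, was called lower at -0.33 ± 0.05 with shTMLHE 1 (0.061 under total counts) and did not pass with shTMLHE 2 at 0.076 ± 0.046, which turned to -0.41 and was called with the trend removed. Without CCNE1 replicate 1 (0.12) or shTMLHE 2 replicate 2 (0.13), and under total counts (0.61), the shTMLHE 2 value was called higher.

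ELOVL6 and LPIN1, the latter a phosphatidate phosphatase of glycerolipid synthesis, were called in opposite directions with the hairpins. ELOVL6 stood at 28.8, 22.4 and 29.0 CPM with CCNE1, 19.0, 20.7 and 21.2 CPM with shTMLHE 1 and 69.1, 67.9 and 68.7 CPM with shTMLHE 2. The last group lay far above the others, with changes of -0.39 ± 0.10 and 1.36 ± 0.09 (edgeR adjusted p = 0.000583 and 6.65e-17), of which the former was 0.0014 and not called under total counts. With the trend removed they were -0.76 and 0.56. LPIN1 was at -0.27 ± 0.09 and 0.67 ± 0.09, of which the former was not called without CCNE1 replicate 2 (-0.22) or shTMLHE 1 replicate 3 (-0.22) or under total counts (0.13), and the latter was 0.19 and not called with the trend removed. ACAT2 was also called in opposite directions, at -0.11 ± 0.04 and 0.41 ± 0.04, of which the former was not called without CCNE1 replicate 1 (-0.078) or shTMLHE 1 replicate 2 (-0.11) and was 0.29 under total counts.

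**Figure D3:**
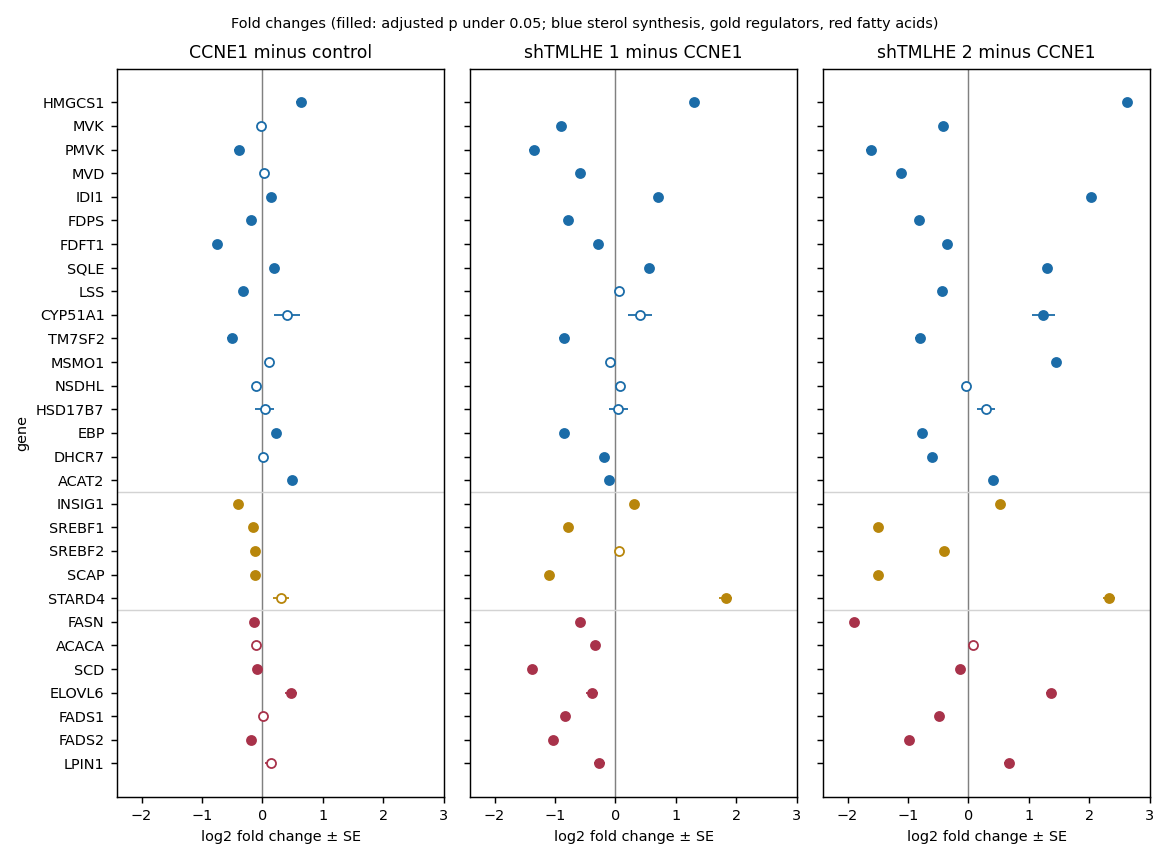
Log2 fold changes ± SE (horizontal axis) of 29 genes in 3 comparisons, filled where the edgeR adjusted p was under 0.05. Values span -0.76 to 0.63 with CCNE1, -1.38 to 1.82 with shTMLHE 1 and -1.88 to 2.62 with shTMLHE 2.

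The hairpin groups were also tested against each other, which asks whether the hairpins differ. Of 29 genes, 8 were higher and 14 lower with shTMLHE 1 than with shTMLHE 2, or 75.9%, against 60.3% of all tested genes (31.3% higher, 29.0% lower), with a median of -0.21 against -0.012. ELOVL6 differed most, at -1.76 ± 0.09 (edgeR adjusted p = 1.23e-19), then MSMO1 at -1.54 ± 0.05 (adjusted p = 1.00e-25), HMGCS1 at -1.32 ± 0.05, IDI1 at -1.31 ± 0.05 and SCD at -1.23 ± 0.03, all lower with shTMLHE 1. FASN was higher with shTMLHE 1, at 1.30 ± 0.03 (adjusted p = 6.86e-30).

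Among regulators, SREBF1 at 0.71 ± 0.05 and SREBF2 at 0.46 ± 0.04 were higher with shTMLHE 1 and STARD4 was lower at -0.51 ± 0.09. With the trend removed these calls ended for SREBF1 (0.030), SREBF2 (0.071) and STARD4 (0.071), and across the list 2 genes were then called higher and 18 lower. PMVK was called higher at 0.26 ± 0.09, a call lost without shTMLHE 1 replicate 3 (0.17) or shTMLHE 2 replicate 2 (0.21) and turned to -0.24 with the trend removed. EBP at -0.083 and FDFT1 at 0.078 did not pass. EBP was called under DESeq2 (-0.12), RLE size factors (-0.12) and total counts (-0.22). It was also called with the trend removed (-0.36) and without shTMLHE 1 replicate 3 (-0.12). FDFT1 was called with the trend removed (0.13) and without shTMLHE 1 replicate 1 (0.089).

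Fold changes of these genes with the hairpins followed the GC content of their transcripts. The 30 genes span 37.4 to 65.3% GC, with a median of 50.3% against 49.7% over all tested genes. Across the 29 genes, which share libraries and are not independent replicates, Spearman's rho between GC content and log2 fold change was -0.65 for shTMLHE 1 and -0.93 for shTMLHE 2, against -0.38 and -0.65 across all tested genes, and -0.62 against -0.39 for CCNE1. The genes that rose most with shTMLHE 2 are GC-poor (STARD4 38.2%, MSMO1 38.6%, IDI1 41.6%, HMGCS1 41.6%, SQLE 42.4% and ELOVL6 42.7%) and those that fell most are GC-rich (FASN 65.3%, SREBF1 63.5%, SCAP 60.9% and PMVK 59.5%). To lessen this, the trend that each library showed with GC content and length over all genes was removed. Because rho was weaker over all genes than across the members, this need not remove the whole relation among the members. With shTMLHE 2 the GC-poor and GC-rich genes just named kept their signs after the removal. Whether the members' values still followed GC content after it was not tested.

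With that trend removed, shTMLHE 1 values were called in the same direction for 22 of the 23 genes called before and 1 call was lost. For shTMLHE 2, 19 of 26 calls were kept in direction, 2 were called in the opposite direction and 5 were lost. HMGCS1 stood at 1.01 and 1.86 with shTMLHE 1 and 2, STARD4 at 1.20 and 1.12, IDI1 at 0.45 and 1.29, SQLE at 0.34 and 0.64 and INSIG1 at 0.28 and 0.31, all called. MSMO1 was at -0.49 and 0.48. SREBF1 stood at -0.63 and -0.66, SCAP at -0.94 and -0.76, FASN at -0.45 and -0.98, SCD at -1.53 and -0.47, FADS2 at -1.15 and -0.69 and PMVK at -0.85 and -0.60, all called. Smaller sterol changes also shifted: MVD stood at -0.24 and TM7SF2 at -0.44 with shTMLHE 1, and CYP51A1 at 0.48, FDPS at -0.44 and EBP at -0.25 with shTMLHE 2. Genes called after the removal and not before were LSS (0.11), MSMO1 and NSDHL (0.25) with shTMLHE 1, and NSDHL (0.25) and ACACA (-0.41) with shTMLHE 2. For CCNE1, 10 of 18 calls were kept in direction, 2 turned and 6 were lost, and 5 genes were newly called: MVD (0.092), MSMO1 (-0.29), DHCR7 (0.18), ACACA (-0.13) and FADS1 (0.14). Between the hairpins HMGCS1 stood at -0.85, IDI1 at -0.84, MSMO1 at -0.97 and FASN at 0.53.

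**Figure D4:**
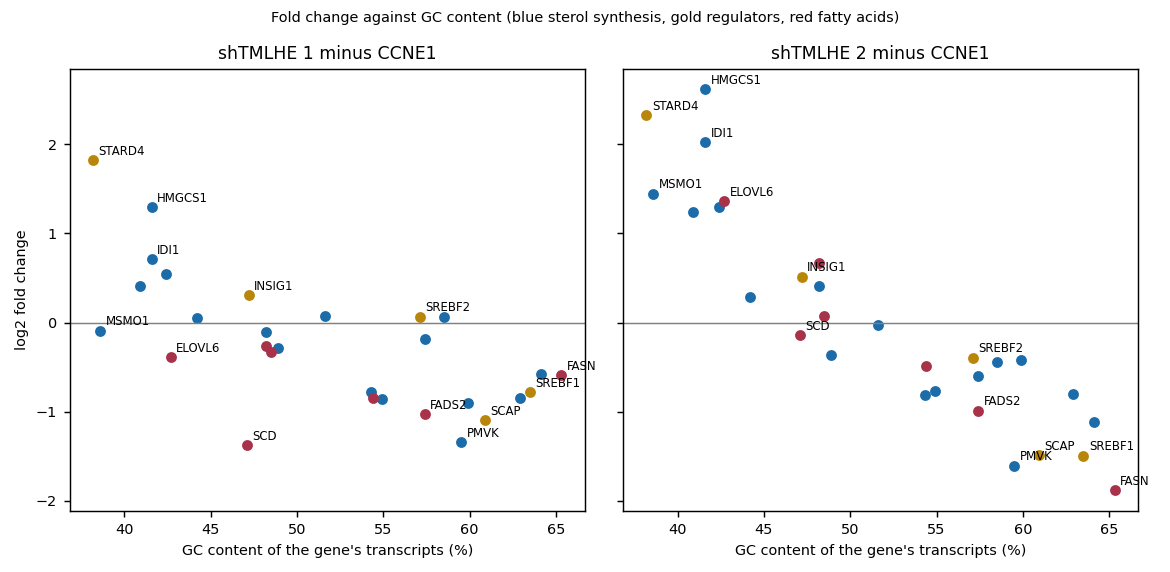
Log2 fold change (vertical axis) against the GC content of each gene's transcripts in percent (horizontal axis) for 29 genes with shTMLHE 1 (left) and shTMLHE 2 (right). Points run from upper left (STARD4, HMGCS1) to lower right (FASN, SREBF1), more closely with shTMLHE 2, and SCD at 47.1% GC lies below the other genes of like GC content with shTMLHE 1.

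Summed over each role, sterol synthesis transcripts stood at 2614 ± 27.0 CPM in control, 2437 ± 16.7 with CCNE1, 2075 ± 33.9 with shTMLHE 1 and 2491 ± 31.5 with shTMLHE 2 (SD, n = 3). The regulators stood at 985 ± 6.59, 884 ± 18.7, 752 ± 23.2 and 604 ± 5.06 CPM in the same order. Fatty acid transcripts stood at 3925 ± 46.1 and 3640 ± 42.2 CPM in control and CCNE1 against 2042 ± 17.0 and 2137 ± 29.2 with the hairpins, and they consist mainly of FASN and SCD. As a share of all counts the fatty acid genes took 0.306 to 0.341% in control and CCNE1 libraries and 0.225 to 0.265% in hairpin libraries, and the sterol genes 0.205 to 0.228% against 0.229 to 0.310%, so that the order of the groups for sterol genes depends on the scaling. The regulators took 0.0841 to 0.0857% in control and 0.0735 to 0.0770% with CCNE1. With shTMLHE 1 they took 0.0818 to 0.0870% and with shTMLHE 2 0.0732 to 0.0748%, so that their order depends on the scaling too.

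Further genes of these pathways were taken from lists by function. Of 13 other sterol and isoprenoid enzymes 2 rose and 4 fell with CCNE1, 4 rose and 2 fell with shTMLHE 1, and 7 rose and 4 fell with shTMLHE 2. The shares called were 46.2%, 46.2% and 84.6%, against 44.2%, 60.7% and 73.0% of all tested genes. With the trend removed 3 were higher and 2 lower with CCNE1, 4 and 4 with shTMLHE 1, and 5 and 5 with shTMLHE 2. LBR, a sterol C14 reductase of the inner nuclear membrane, rose by 1.01 ± 0.06 with CCNE1 and by 0.49 ± 0.05 and 1.18 ± 0.05 with the hairpins, at 51.3, 103, 145 and 234 CPM from control to shTMLHE 2. With the trend removed its changes were 0.65, 0.13 and 0.32. LBR shares its enzymatic step with TM7SF2, which was called lower in each of the same comparisons. With the trend removed TM7SF2 stood at -0.40, -0.44 and 0.26, so that its shTMLHE 2 value turned. NUS1, a subunit of the dolichol-making transferase, rose by 0.99 ± 0.11 and 1.67 ± 0.11 with the hairpins, and RABGGTA, a Rab prenyltransferase subunit, fell, at -0.67 ± 0.07 and -1.30 ± 0.07. With the trend removed NUS1 stood at 0.40 and 0.50 and RABGGTA at -0.35 and -0.46.

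Of 21 tested genes of sterol sensing, transport and the oxysterol receptors (LXR), 7 rose and 7 fell with CCNE1, 9 rose and 8 fell with shTMLHE 1, and 11 rose and 6 fell with shTMLHE 2. The shares called were 66.7%, 81.0% and 81.0%, against 44.2%, 60.7% and 73.0% of all tested genes. With the trend removed 3 were higher and 5 lower with CCNE1, and the balance turned to 6 higher and 8 lower with each hairpin. SOAT1, which esterifies cholesterol, rose by 0.40 ± 0.07, 0.80 ± 0.07 and 1.07 ± 0.06, and was at -0.0024 with CCNE1 and -0.017 with shTMLHE 2 once the trend was removed. The lysosomal cholesterol carriers differed, as NPC1 fell by 0.54 ± 0.06 with CCNE1 and rose by 0.71 ± 0.06 with shTMLHE 1 (0.37 with the trend removed), while NPC2 fell in both, at -0.41 ± 0.05 and -0.58 ± 0.06. ERLIN1, part of an endoplasmic reticulum degradation complex for sterol proteins, fell by 1.82 ± 0.07 with shTMLHE 1, at 77.0 CPM with CCNE1, 21.8 with shTMLHE 1 and 76.5 with shTMLHE 2. The LXR-beta gene NR1H2 fell by 1.19 ± 0.05 with shTMLHE 2 (-0.17 with the trend removed), and the lipoprotein receptor LRP8 rose by 1.13 ± 0.08 there.

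Of 32 other fatty acid and glycerolipid genes 18 rose and 7 fell with CCNE1, 7 rose and 15 fell with shTMLHE 1, and 15 rose and 12 fell with shTMLHE 2. The shares called were 78.1%, 68.8% and 84.4%, against 44.2%, 60.7% and 73.0% of all tested genes. With the trend removed 11 were higher and 6 lower with CCNE1, and the balance turned with shTMLHE 2, to 8 higher and 13 lower. TECR, the reductase of the elongation cycle, fell with the hairpins, at -2.16 ± 0.04 and -2.12 ± 0.04, from 424 CPM with CCNE1 to 94.9 and 97.5. SLC25A1, the mitochondrial citrate carrier that exports carbon for lipid synthesis, fell, at -1.64 ± 0.04 and -2.27 ± 0.04. DGAT1, which makes triglyceride, fell, at -0.96 ± 0.05 and -2.30 ± 0.06, and AGPAT2, an acyltransferase of phosphatidic acid synthesis, fell by 1.88 ± 0.05 with shTMLHE 2 (-0.50 with the trend removed). ACLY, which releases acetyl-CoA from citrate in the cytosol, fell by 0.31 ± 0.03 with CCNE1, and ACSL4, which activates polyunsaturated fatty acids, rose by 0.76 ± 0.05 there, at -0.16 and 0.34 with the trend removed. The values of TECR, SLC25A1 and DGAT1 remained called with the trend removed, at -2.02, -1.06 and -0.60 with shTMLHE 1 and -1.48, -0.89 and -1.25 with shTMLHE 2.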

How the data were processed

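RNA from 12 libraries was made with the NEBNext Ultra 2 kit per the labels' protocols. The deposited counts are whole reads per gene, made by the authors without normalization, and the deposited FPKM are the authors' length- and depth-scaled values. Per the submitters' processing notes STAR 2.6.1, DESeq2 and GRCh38 were used. For the counting program and its strand setting, the sources used here give nothing. The deposited gene_length column equals the GENCODE 29 exon length for 99.98% of genes.

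Genes were filtered with filterByExpr (15378 kept, 43357 left out) and fitted in edgeR 4.0.16 (R 4.3.3) with TMM factors, 1 mean per group over 12 libraries, 8 residual degrees of freedom and robust quasi-likelihood tests. P-values were adjusted over all tested genes by the Benjamini-Hochberg method. SE is the log2 fold change divided by the root of F. CPM are TMM-scaled, and RPKM are CPM per kilobase of exon. GC content came from GENCODE 29 transcripts, and the GC and length trend was removed by per-library spline offsets (4 degrees of freedom each). The fit was tested on simulated data. Alternatives were DESeq2 1.42.0, RLE size factors, total counts, no filter, the compared groups alone, a replicate block, the removed trend, each library left out, and for levels the authors' FPKM. The members and lists were chosen with earlier results of these data known. Values in every library are given for the 3 called members of each role with the largest change in a comparison and for SREBF1, SREBF2 and INSIG1, and other pathway genes are taken from those with the 4 smallest p per list. A gene that this rule names is not reported here. Replicate numbers are shared by the groups in the labels, but same-numbered libraries did not deviate together (correlations of -0.046 to 0.026 over 18 pairs).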

Additional observations from a re-analysis of the deposited data

Results flagged for a closer look

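In all, 3 genes were called in opposite directions by the hairpins, and the difference between the hairpins passed its own edgeR test. ELOVL6 differed by -1.76 on the log2 scale (shTMLHE 1 minus shTMLHE 2), LPIN1 by -0.94 and ACAT2 by -0.52. Total counts raise all shTMLHE 1 values together, by 0.39 at the median, and the shTMLHE 1 values of the 3 genes were then above 0 (0.0014 for ELOVL6, 0.13 for LPIN1 and 0.29 for ACAT2). With the GC and length trend removed ELOVL6 stood at -0.76 and 0.56 and ACAT2 at -0.17 and 0.24 with shTMLHE 1 and 2, all called, and LPIN1 at -0.67, called, and 0.19, not called.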

How the results depend on the processing

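The direction and call of the members held in most alternatives other than total counts and the removed GC and length trend, and no called value turned under RLE size factors, DESeq2, the absent filter, the compared groups alone, the replicate block or a left-out library. Members called higher and lower with CCNE1 were 6 and 12 (5 to 7 and 11 to 12 with a library left out), with shTMLHE 1 they were 5 and 18 (5 to 6 and 17 to 18) and with shTMLHE 2 10 and 16 (10 to 11 and 16 to 16). Between the hairpins they were 8 and 14 (7 to 9 and 14 to 15). With the replicate block the counts were 6 and 12, 5 and 18, 10 and 16, and 8 and 14, and the block changed no call of a member.

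Under total counts 14 members and 7844 genes (4673 with TMM) rose and 12 members and 2490 genes (4665) fell with shTMLHE 1, and 17 members and 8315 genes (5653) rose and 9 members and 3443 genes (5571) fell with shTMLHE 2. The turned values there were FDFT1 0.11, MSMO1 0.30, DHCR7 0.21, ACAT2 0.29, ACACA 0.061, ELOVL6 0.0014 and LPIN1 0.13 with shTMLHE 1, MVK 0.11, FDFT1 0.17, LSS 0.091, NSDHL 0.50, SREBF2 0.13, SCD 0.39 and FADS1 0.040 with shTMLHE 2, and FDPS -0.10 between the hairpins. These follow the scaling itself, which moves all genes of a comparison together.

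With the trend removed 2 members were higher with shTMLHE 1 than with shTMLHE 2. The turned values were IDI1 -0.18, SQLE -0.100, MSMO1 -0.29 and SREBF2 0.029 for CCNE1, DHCR7 0.011 for shTMLHE 1, MVK 0.23, LSS 0.070, TM7SF2 0.26, NSDHL 0.25 and ACACA -0.41 for shTMLHE 2, and PMVK -0.24, MVD -0.18, FDPS -0.22, SCAP -0.18 and STARD4 0.071 between the hairpins. In 27 further cases a value that was called neither way changed sign. The authors' FPKM were 1.01 to 1.04 times the RPKM given here. CYP51A1, STARD4 and HSD17B7, with 1.18 to 1.79 RPKM in control, have the least precise values.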
